A study of Homo sapiens with 6 samples.

Results

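Noncoding snoRNA host genes are described here by the USP39 binding sites they hold outside their small RNAs. The genes are GAS5, SNHG1, SNHG3, SNHG5, SNHG6, SNHG7, SNHG8, SNHG12, SNHG16 and EPB41L4A-AS1. A site was counted when its central base lay in the span of one of these 10 genes, on the strand that carried most of its sites, and outside every SNORD and SNORA gene. The rule gave 171 sites of the 34781 in the list, or 0.492%. All 10 genes had at least 1 such site, though the only one of SNHG8 overlaps the first base of SNORA24.

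The sites come from iCLIP2, an assay that maps where UV light joined a protein to RNA, in wild-type HEK293T, a long-established human line of embryonic kidney origin. Cells were irradiated at 254 nm and USP39 was precipitated with an antibody against the protein itself. RNA was taken from a low and a high membrane region, with 3 replicates each, 6 libraries in all. One merged list filed under the low region, replicate 1, was analysed. Which libraries were merged into it is not given in the sources used here. Each site is 5 nt wide and carries a score of 0, so the list gives positions but no read depth, no height and no replicate error. No value below measures a spread between libraries, the membrane regions could not be compared, and the cells left without UV light were not analysed here. The cell line could not be checked against marker genes, since RNA levels were not measured.

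Small nucleolar RNAs (snoRNAs) guide the chemical modification of ribosomal and spliceosomal RNA. C/D box snoRNAs (SNORD) guide ribose methylation and H/ACA box snoRNAs (SNORA) guide pseudouridylation. In human cells most of them lie in introns of host genes and are released after splicing, when the intron lariat is opened and trimmed from both ends down to the protected small RNA. Some host genes code for ribosomal or translation proteins. The hosts described here code for no long protein; their spliced exons have been known mainly as short-lived by-products, several of them removed by nonsense-mediated decay, although GAS5 and some SNHG RNAs have reported roles of their own. Transcripts of many snoRNA hosts begin with a stretch of pyrimidines, the 5′ terminal oligopyrimidine tract, which couples their translation to growth signals. USP39 belongs to the tri-snRNP of U4, U6 and U5, which enters the assembling spliceosome just ahead of its activation.

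Several host transcripts carried a site at their very first bases. Sequence was at hand only around listed transcript starts, so the letters of other host sites are not shown. The RefSeq promoter table lists a start for 9 of the 10 hosts, and 3 of the 9 (SNHG1, SNHG12 and SNHG16) had a site centred in the first 10 bases, against 0.472% of all 34943 listed starts. The hosts were named with their site counts known, and each holds sites. The listed starts were taken whether or not their gene had a site. These shares are therefore not alike, and their difference is no result about the hosts. The first 50 bases of these 3 transcripts are shown with the bases covered by sites in capitals, next to the listed start of RCC1, which lies within SNHG3 on the same strand, and the listed start of GAS5, which had no site. All are written 5′ to 3′ in DNA letters, from RefSeq on GRCh38.p14.
SNHG1, minus strand, chr11:62855836-62855885: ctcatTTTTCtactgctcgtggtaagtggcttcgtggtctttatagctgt
SNHG12, minus strand, chr1:28581824-28581873: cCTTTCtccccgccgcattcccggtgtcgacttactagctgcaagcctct
SNHG16, plus strand, chr17:76557764-76557813: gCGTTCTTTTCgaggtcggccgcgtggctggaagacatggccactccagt
RCC1 start within SNHG3, plus strand, chr1:28506043-28506092: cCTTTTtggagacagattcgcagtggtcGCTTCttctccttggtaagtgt
GAS5, minus strand, chr1:173868996-173869045: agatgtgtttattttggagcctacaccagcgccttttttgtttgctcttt

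The site of SNHG1 was centred on base 8 and that of SNHG12 on base 4. SNHG16 had a pair of touching sites, centred on bases 4 and 9. RCC1, whose product is the nucleotide exchange factor of the GTPase Ran, had sites centred on bases 4 and 31 of its listed start, and both also lie in the span of SNHG3. Over these 6 sites, 19 of the 30 bases were T, 9 were C and 2 were another base. SNHG6, which has no entry in the promoter table, had its first site centred on base 2 of its span. SNHG5 and SNHG8 each had a site centred 2 nt before base 1 of their spans, which the rule leaves out. The first site of GAS5 lay 1055 nt into its span, where a pair of touching sites was centred on bases 1055 and 1060. Starts of other GAS5 transcripts were not at hand, so whether any lies near this pair was not examined. The span of SNHG12 begins 1110 nt before the start listed for it, and no site lay in that stretch. In the first 10 bases of their listed starts the 9 hosts had a median of 7 pyrimidines, with 8 or more in 4 of them, while the median over all listed starts was 5 and 9.95% had 8 or more. Within 10 nt on each side of these 6 site centres 39.7% of 126 bases were T, beside 32.3% around 437 other sites of the list in the same windows. With 5 nt on each side the share was 50% around the 6 sites and 40.1% around 482 other sites, and with 20 nt it was 30.2% around the 5 sites whose window was complete and 27.1% around 327 others. These windows reach over the start into bases that are not transcribed from it, and the difference was not tested. The windows of the SNHG16 pair overlap, so some bases were counted more than once. Of the 6 sites, 2 come from the RCC1 start.

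SNHG3, GAS5, SNHG1 and SNHG16 held most of the sites, and SNHG8 and EPB41L4A-AS1 almost none. For comparison, 2.73% of the 18303 lncRNA genes in the table had a site by the same rule, and 0.951% of the 11572 that overlap no protein-coding gene. These 10 genes were named with site counts already known, so having a site is no result about them.

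SNHG3 on chromosome 1 (28505943 to 28510892, plus strand) is the host of SNORA73A and SNORA73B, the copies of U17, an H/ACA RNA needed for processing of 18S rRNA rather than for modification. It had 44 sites, 25.7% of all, the most of the 10 genes, and 7 more within its snoRNA genes. The density outside the snoRNA genes was 9.70 sites per kb, the highest of the 10. All 44 sites also lie in RCC1 on the same strand, so they are shared between the annotations and cannot be told apart by gene.

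GAS5 on chromosome 1 (173863901 to 173869045, minus strand) was found as an RNA that accumulates in growth-arrested cells and can bind the glucocorticoid receptor. It carries 10 C/D box genes and 1 H/ACA box gene, SNORA103. There were 31 sites outside them and 27 within, the largest number inside snoRNA genes of any host. The density outside was 7.14 per kb. From base 1055 onwards the sites ran through most of the stretches between snoRNA genes, and 7 of these 10 stretches had a site.

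SNHG1 on chromosome 11 (62851978 to 62855885, minus strand) is the U22 host gene, with SNORD22 and SNORD25 to SNORD31. It had 28 sites outside its 8 snoRNA genes and 13 within, and a density outside of 8.51 per kb. All 7 of its stretches between snoRNA genes had a site. One of the 28 sites lay in LOC124900306, which the table classes as a snoRNA gene without a SNORD or SNORA name.

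SNHG16 on chromosome 17 (76557764 to 76565348, plus strand) holds SNORD1A, SNORD1B and SNORD1C, which share a family name. Its 27 outside sites were gathered at the 3′ end: 22 of them followed the last snoRNA gene, 4 preceded the first, and 1 lay in the 2677 nt between. Its 12 inside sites were split evenly, with 4 in each SNORD1 gene. In GAS5, by comparison, 25 of 31 sites lay between snoRNA genes, and in SNHG1 17 of 28.

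The other 6 hosts had 41 sites in all. SNHG5 on chromosome 6 (85677007 to 85678733, minus strand), host of SNORD50A and SNORD50B, had 11 in a short span, or 6.96 per kb. SNHG12 on chromosome 1 (28578538 to 28582983, minus strand), with SNORA16A, SNORA44, SNORA61 and SNORD99, also had 11, or 2.77 per kb, and as many inside its snoRNA genes. SNHG7 on chromosome 9 (136724594 to 136728184, minus strand), host of SNORA17A and SNORA17B, had 10. The table places a protein-coding locus, LOC124900276, over all 10 on the same strand. SNHG6 on chromosome 8 (66921690 to 66925541, minus strand by its sites), host of SNORD87, had 6. All of them lay in the span of MCMDC2, and the tables give the strand of neither gene. EPB41L4A-AS1 on chromosome 5 (112160526 to 112162501, plus strand), host of SNORA13, had 2. They lay within EPB41L4A, which runs on the opposite strand. SNHG8 on chromosome 4 (118278762 to 118279823, plus strand), host of SNORA24, had 1.

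**Figure D1:**
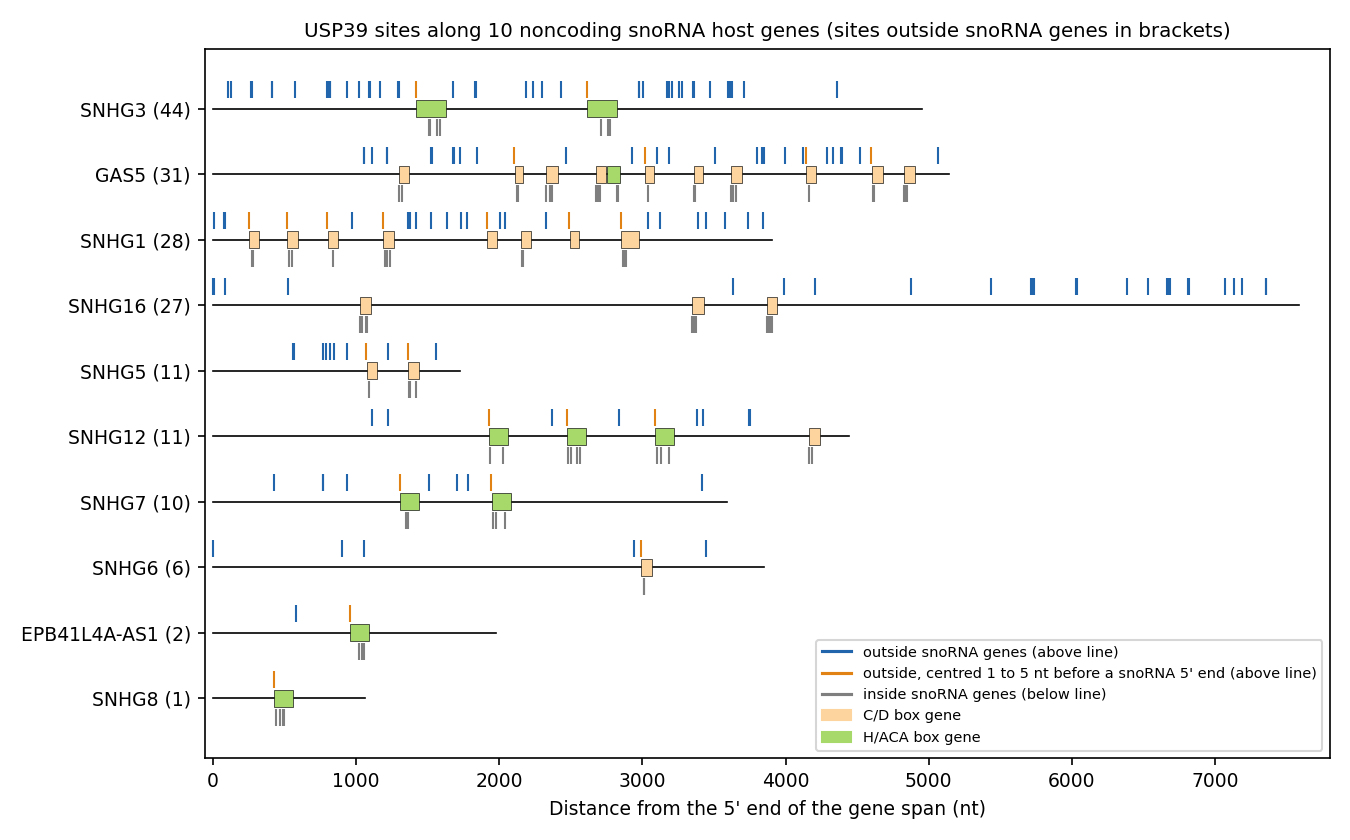
Positions of USP39 sites along the 10 host genes, in nt from the 5′ end of each span. Ticks above a line are sites outside snoRNA genes (orange where centred 1 to 5 nt before a snoRNA 5′ end), ticks below are sites inside snoRNA genes, and boxes are the C/D and H/ACA genes; SNHG16 shows 22 sites after its last snoRNA gene.

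Where a gene lies within another, the count can depend on which is counted. In all, 63 of the 171 sites also lay in another gene of the table on either strand, and 108 did not. Of these other genes, RCC1 and LOC124900276 run on the strand of the host and EPB41L4A on the opposite one. No strand was at hand for MCMDC2 or LOC124900306. With those 63 left out, SNHG3, SNHG6, SNHG7 and EPB41L4A-AS1 have no site, SNHG1 has 27, and GAS5, SNHG5, SNHG8, SNHG12 and SNHG16 keep all of theirs. Among the 110 lncRNA genes with a site that overlap no protein-coding gene, SNHG1 ranked 7 and SNHG16 ranked 8 by number of sites, SNHG5 ranked 14, and the median was 2 sites. SNHG8, with 1 site, was below that median. The other 6 hosts, GAS5 and SNHG12 among them, overlap a protein-coding gene and are not in this ranking.

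The 10 spans hold 35 snoRNA genes, 25 C/D and 10 H/ACA, which take up 3300 nt, against 34942 nt outside them. Of the 259 sites on the hosts' strand, 171 lay outside the snoRNA genes and 88 inside (34.0%, 95% Wilson interval 28.5% to 39.9%). The interval covers counting error only, and neighbouring sites are not independent. The opposite strand had 0 sites in all 10 spans. Per length, there were 4.89 sites per kb outside and 26.7 per kb inside. The density inside was the higher one in each host, by 1.75 times in SNHG3, 2.47 times in SNHG1, 4.72 times in GAS5 and 13.6 times in SNHG16. In SNHG8, with 1 site outside and 4 inside, the ratio was 28.4. The outside density spanned 1.07 to 9.70 per kb over the hosts, while the inside density spanned 17.0 to 50 per kb. The gene table has no exons, so outside sites in exons and in introns are counted together, and the amount of host RNA and of mature snoRNA in the cells was not measured.

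**Figure D2:**
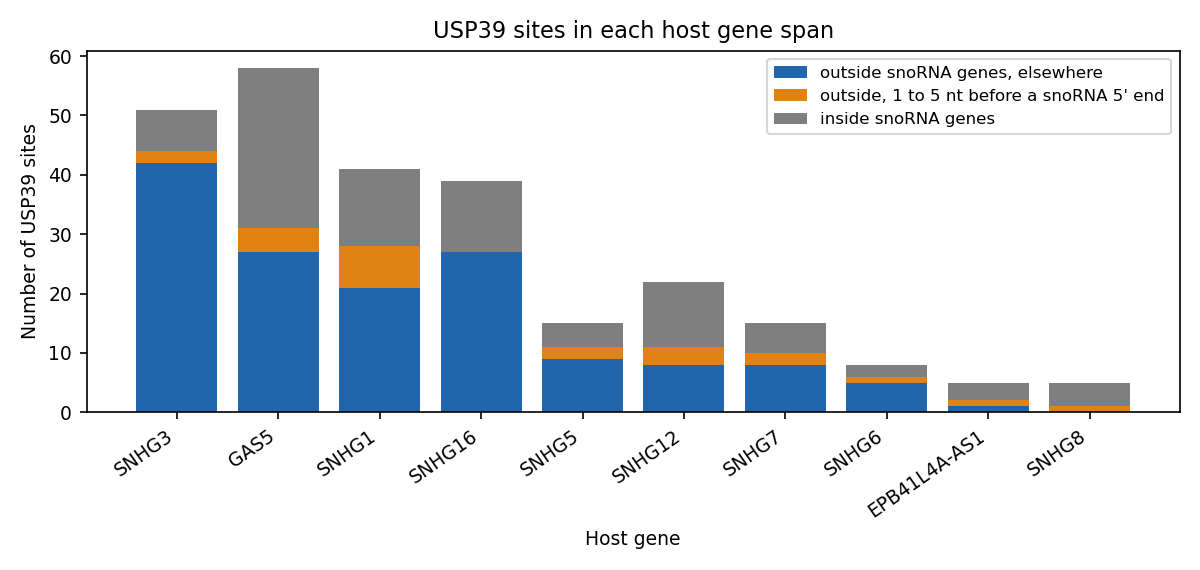
Number of USP39 sites in each host span, stacked as sites outside snoRNA genes (blue), sites outside but centred 1 to 5 nt before a snoRNA 5′ end (orange) and sites inside snoRNA genes (grey). GAS5 has 27 inside sites and SNHG3 has 7.

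**Figure D3:**
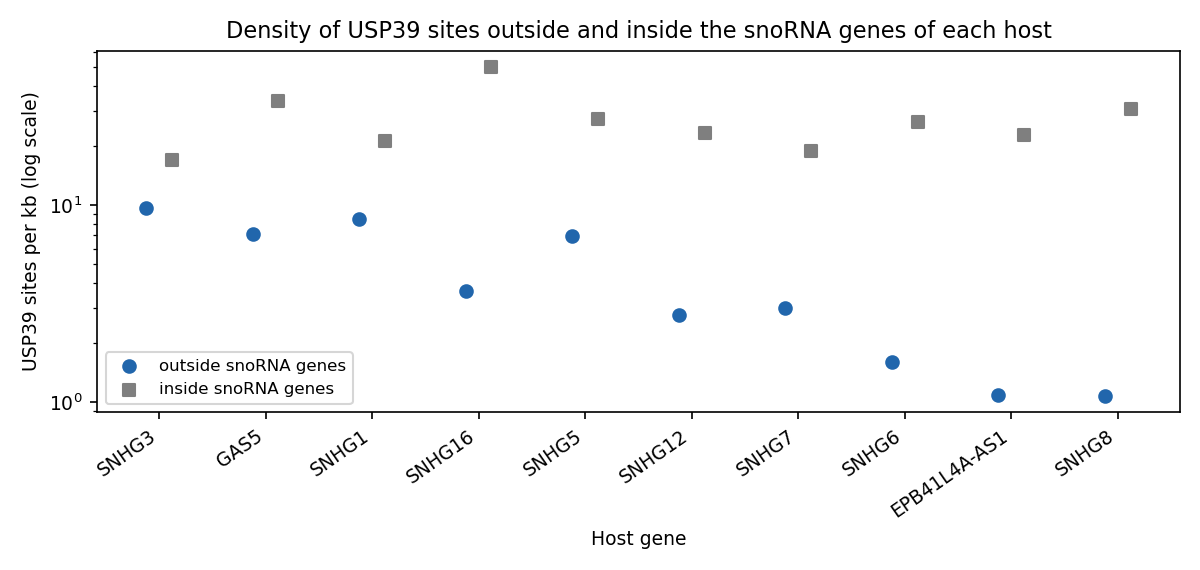
USP39 sites per kb (log axis) for each host, outside its snoRNA genes (circles, left) and inside them (squares, right). The outside values run from 1.07 to 9.70 per kb, and in every host the square lies above the circle.

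Part of the outside sites stood directly in front of a snoRNA. A site centred 1 to 5 nt before the 5′ end of a snoRNA gene was found at 23 of the 35 genes (65.7%, Wilson interval 49.2% to 79.2%), and these 23 sites make up 13.5% of the 171 (Wilson interval 9.13% to 19.4%). The spacing was tight: 10 were centred 1 nt before the first base, 10 were 2 nt before it, 2 were 3 nt before it (SNORD22 and SNORA13) and 1 was 4 nt before it (SNORD87). No outside site lay 6 to 20 nt before a 5′ end, and the next nearest was 21 nt away, in front of SNORD80. No site was centred 1 to 5 nt after a 3′ end, and the nearest site downstream of one was 24 nt away. Sites that were 1 or 2 nt before the first base overlap the snoRNA gene, since a site is 5 nt wide; counted by any overlap, 151 sites lie outside the snoRNA genes and 108 in them. With the snoRNA genes widened by 20 nt on each side, 148 sites stay outside.

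In these hosts, of the 10 H/ACA genes, 9 had a site centred 1 to 5 nt before the 5′ end, and 0 had a site centred on the first 5 bases. Of the 25 C/D genes, 14 had a site just before the 5′ end and 12 had one on the first 5 bases; all 25 had one or the other, and SNORD50A had both. In GAS5 the genes SNORD75, SNORD44, SNORD80 and SNORD47 had the site before the end, and SNORD74, SNORD76, SNORD77, SNORD78, SNORD79 and SNORD81 had it on the first bases. In SNHG1 7 of 8 genes had the site before the end, and SNORD30 had it on base 4. The 3 SNORD1 genes of SNHG16 had it on base 3 or 4. SNORA103 in GAS5 was the only one of the 35 with neither; its first site was on base 68. SNORD29 and SNORD31 in SNHG1 had no site inside at all, and their single site stood 1 and 2 nt in front. No test was made of the difference between the kinds.

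**Figure D4:**
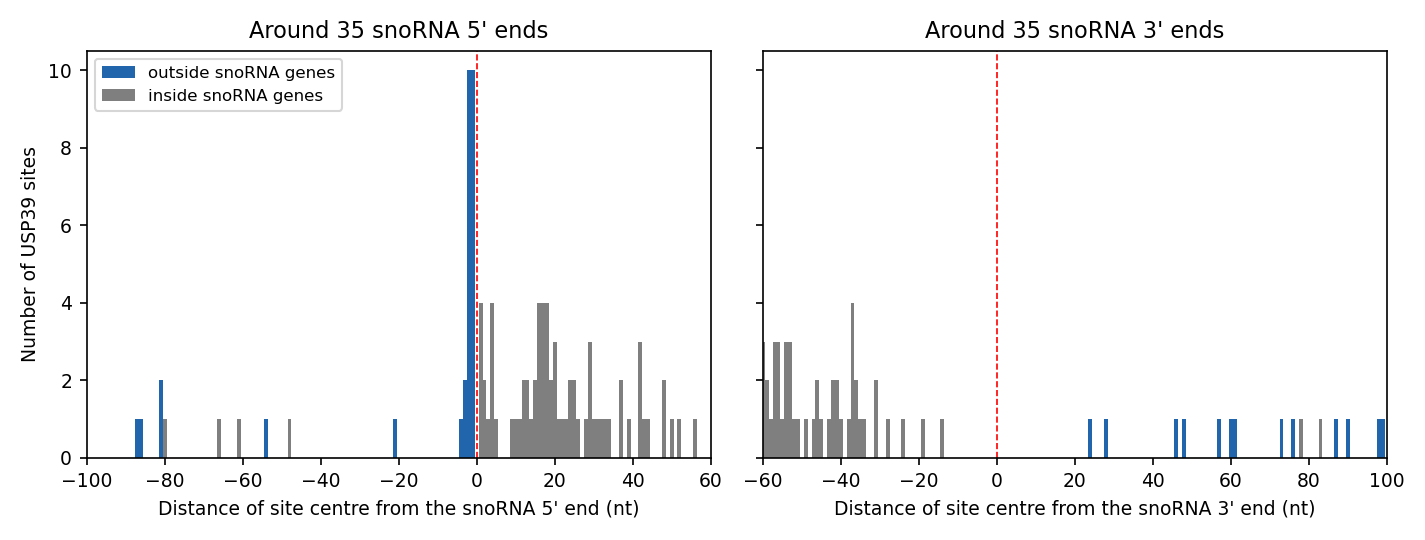
Sites by the distance of their centre from the 5′ ends (left) and 3′ ends (right) of the 35 snoRNA genes in the hosts, with 5′ to 3′ running left to right; the dashed line is the gene's end. Outside sites pile up 1 and 2 nt before the 5′ end, 10 at each distance, and none lies within 23 nt after a 3′ end.

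Among SNORD and SNORA genes elsewhere, 212 had a site inside, and 52.8% of these also had one centred 1 to 5 nt before the 5′ end. In the hosts it was 21 of the 33 genes with a site inside (63.6%, Wilson interval 46.6% to 77.8%), an interval that holds the value of the other genes. By kind, the share elsewhere was 69.0% of 87 H/ACA genes and 41.6% of 125 C/D genes, and 0.472% of the 212 had a site just after the 3′ end. A site on the first 5 bases was found in 9 of those 87 H/ACA genes and in 48 of the 125 C/D genes. A site in either place was found in 32 of the 33 host genes with a site inside, against 166 of the 212 elsewhere. Elsewhere it was 97 of the 125 C/D genes and 69 of the 87 H/ACA genes. The 25 C/D genes of the hosts include SNORD29 and SNORD31, which had no site inside, so they are not a like set. A site on the first 5 bases is itself a site inside, so the choice of genes partly sets these shares. The hosts were also chosen with their counts known. These differences were not tested. Strand was taken from the sites inside each gene, since the tables give none for snoRNAs.

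Inside the 35 snoRNA genes the number of sites was 0 to 4. The highest number, 4, was reached by SNORD76, SNORD77, SNORD79, the 3 SNORD1 genes, SNORA73A, SNORA24 and SNORA44. The site closest to a 3′ end from within was 13 nt away, in SNORA103, and the next was 23 nt away, in SNORD50A. Some of these snoRNAs share a family name (SNORD1A, B and C, SNORA73A and B, SNORA17A and B, SNORD50A and B). Their sequences were not compared, so which family member a site belongs to remains uncertain.

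Away from the snoRNA ends, 148 sites remained. SNHG3 had 42 of them, GAS5 and SNHG16 27 each and SNHG1 21. SNHG5 had 9, SNHG12 and SNHG7 8 each, SNHG6 5, EPB41L4A-AS1 1 and SNHG8 0. The only site of SNHG8 was thus the one 2 nt in front of SNORA24, and 1 of the 2 sites of EPB41L4A-AS1 stood 3 nt in front of SNORA13. Pooled over the hosts, there were 3.78 per kb before the first snoRNA gene, 4.49 per kb between snoRNA genes and 4.50 per kb after the last one. Single hosts were less even. SNHG3 had 12.7 per kb before SNORA73A and 7.98 per kb after SNORA73B. SNHG16 had 0.374 per kb between its snoRNA genes and 6.04 per kb after them. SNHG7 had 5.89 per kb between SNORA17A and SNORA17B and 0.662 per kb after SNORA17B. SNHG12 had no outside site in the 205 nt after SNORD99.

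The sites were split almost evenly about the middle of the spans. The 5′ part, up to the midpoint, held 83 of the 171 (48.5%, Wilson interval 41.2% to 56.0%). With each span cut into 10 equal bins, the first bin held 15 sites and the last 11, and the fullest were bin 8 with 25 and bin 3 with 24. Genes differed: 5 of 27 sites lay before the midpoint in SNHG16 and 3 of 11 in SNHG12, against 26 of 44 in SNHG3 and 8 of 10 in SNHG7. The last site lay 62 nt before the end of the span in SNHG1, 78 nt in GAS5 and 228 nt in SNHG16, but 589 nt in SNHG3 and 691 nt in SNHG12.

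Spacing was read between neighbouring outside sites of the same host. Shares with a neighbour rise with site density, and none was taken over the whole list or other genes. Whether sites lay closer than their density alone gives was not tested. Of the 171, 86 had a neighbour within 50 nt in the same host (50.3%, Wilson interval 42.9% to 57.7%). The median distance between neighbours was 113 nt over 161 pairs, and 11 pairs touched, at the smallest distance of 5 nt. SNHG16 had 5 of these touching pairs, SNHG3 had 3, GAS5 had 2 and SNHG7 had 1. With sites within 50 nt joined, 121 groups were left, of which 85 were lone sites and 10 held 3 or more. The fullest groups had 4 sites each. SNHG3 had such groups at bases 801 to 823 and 3600 to 3626 of its span, SNHG5 at 773 to 848 and SNHG16 at 6666 to 6684. In SNHG3 68.2% of the sites had a neighbour, in GAS5 58.1%, in SNHG16 55.6% and in SNHG1 32.1%. Within 500 nt, SNHG3 held up to 12 sites, counted from base 3172, and GAS5 up to 8, counted from base 4122.

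Other noncoding hosts had sites too. Of 18 further genes (SNHG and related hosts, some of which carry small Cajal body RNAs in place of SNORD or SNORA genes), 15 had a site outside snoRNA genes, with 137 sites in all. SNHG17 had 27, SNHG32 26, SNHG4 21 and SNHG29 20. SNHG20 and ZFAS1 had 7 each, SNHG10 and SNHG22 6 each, SNHG15 5 and DANCR 4. SNHG25, SNHG26 and SNHG30 had 2 each, and SNHG14 and SNHG19 had 1 each, that of SNHG14 on the strand opposite to its listed one. SNHG21 had no site, and SNHG9 and SNHG11 had a site only inside their snoRNA genes. The pooled density was 4.89 per kb in the 10 hosts and 0.184 per kb in the 18, of which SNHG14 alone makes up 588854 of 742566 nt. The median gene had 3.34 per kb among the 10 and 0.642 per kb among the 18. Of the 10, 4 were at or above the pooled 4.89 per kb, and of the 18 SNHG32 and SNHG25 were.

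Protein-coding genes that hold a SNORD or SNORA gene gave a range that reached over that of the noncoding hosts. There were 225 such genes, and 157 had a site. Overlapping coding loci were counted as separate genes, so some sites enter these counts, shares and densities more than once. The share of all span sites that lay inside snoRNA genes was 34.0% in the 10 noncoding hosts, 23.5% in the 18 others and 16.3% in the coding genes. It depends on how much of a span is snoRNA gene, so densities are given too. The 10 hosts had 26.7 sites per kb inside and 4.89 outside, and the 18 others 4.43 inside and 0.184 outside. In the 157 coding genes with a site there were 19.2 per kb inside and 0.248 outside. The median outside density was 3.34 per kb in the 10 hosts and 0.518 per kb in the 157 coding genes with a site, whose spans are mostly longer. Of the 157, 18 had a density of 4.89 per kb or more. The coding genes with the most outside sites were PRRC2B with 104, HNRNPU with 91 and FASN with 85. At 6.45 per kb, HNRNPU, a nuclear RNA-binding protein gene, was denser than 6 of the 10 noncoding hosts. The 10 genes were chosen with their counts known, and how much RNA each gene made is unknown, so these densities are given side by side and were not tested.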

How the data were processed

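The authors deposited 1 merged BED list of USP39 binding sites, whose score is 0 for every site. The submitters' processing notes name, without role or order, UMI-tools 1.1.2, STAR 2.7.3a, bedtools 2.29.2, SAMtools 1.10 and FastQC 0.11.9, and the build GRCh38.p12. How sites were called and filtered is not given in the sources used here. Positions are 1-based. Gene spans came from a RefSeq table and transcript starts from a RefSeq promoter table, both GRCh38.p14, whose main chromosomes share the coordinates of the list. The tables hold no exons and no snoRNA strands, so snoRNAs within a host were read on the host's strand. Placement was tested on simulated data. Shares have 95% Wilson intervals. No test across libraries was possible. The genes, lists and naming rule (all 10 hosts, their snoRNA genes with sites, overlapping genes, other hosts with a site and the 3 coding hosts with the most sites) were chosen with earlier results of these data known. Counting used pandas 2.3.3 and numpy 2.4.6 in Python 3.11.15, with intervals from scipy 1.17.1 and plots from matplotlib 3.10.9.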

Additional observations from a re-analysis of the deposited data

How the results depend on the processing

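The number of outside sites stayed between 121 and 173 under 6 of 7 alternatives (any base in the span, any overlap with a snoRNA gene, widened snoRNA genes, other small RNA genes left out, joined sites, both strands) and was 108 without sites that lie in another gene. By any overlap, or with widened snoRNA genes, SNHG8 keeps no outside site. The share inside snoRNA genes was 41.7% by any overlap and 25.9% with sites within 50 nt joined. The share within 50 nt of a snoRNA gene was 16.4%; it was 24.6% for up to 100 nt and 42.7% for up to 200 nt. The share with a neighbour was 38.6% for 20 nt, 66.7% for 100 nt and 59.6% with sites inside snoRNA genes counted as neighbours. The share of T near the starts was 50% for 5 nt and 30.2% for 20 nt on each side. The share up to the midpoint of the span stayed between 44.9% and 54.2% over all its alternatives. Leaving out each gene in turn moved the inside share between 30.3% and 38.9% and the outside density between 4.18 and 5.29 per kb. The limit of 5 nt, starts from the promoter table and leaving out the sites in front of snoRNAs were chosen after seeing the data. No paired analysis was possible because the list is merged and carries no value per replicate; no replicate could be left out either. Depth is unknown, so a gene or stretch without a site is not shown to be unbound.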
